A study of Mus musculus with 2 samples.

Results

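Cd4, Cd8a, Cd8b1, Zbtb7b and Runx3, the 2 coreceptor loci of T cells and the transcription factors that set the choice between them, were followed in T cells taken from EMT6 tumours. The 5 genes were chosen by name, out of 32285 genes in the deposited tables, and each was found once in both tables. EMT6 is a mouse mammary carcinoma line that grows in BALB/c mice. BALB/c mice aged 4 to 6 weeks carried subcutaneous EMT6 tumours from 100000 implanted cells and were randomised at tumour volumes of 80 to 150 mm3. The mSTAR1302 group received the antibody mSTAR1302 by intraperitoneal injection once a week for 2 cycles, and the other group received vehicle. CD4+ and CD8+ tumour-infiltrating lymphocytes were pulled from digested tumours with CD4/CD8 magnetic beads, kept in medium, and made into 1 10x 3′ library per group. Each group is therefore 1 sample, the sources used here do not give the number of mice behind a library, and nothing between the groups could be tested. All intervals below are 95% and cover counting error only.

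The CD4 protein binds MHC class II and the CD8 protein binds MHC class I, and each brings the kinase Lck to the T cell receptor. CD8 on conventional T cells is a heterodimer of the alpha chain (Cd8a) and the beta chain (Cd8b1), and the alpha chain can also pair with itself. In the thymus, ThPOK, the product of Zbtb7b, holds cells in the helper lineage. Runx3 holds them in the cytotoxic lineage, where it silences Cd4 and Zbtb7b. Regulatory T cells, which depend on Foxp3, are normally CD4+ cells.

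In GENCODE M21 on GRCm38, the build named mm10 in the submitters' processing notes, Cd4 (ENSMUSG00000023274) lies at chr6:124864692-124888221 on the minus strand. Cd8b1 (ENSMUSG00000053044, chr6:71322788-71337494) and Cd8a (ENSMUSG00000053977, chr6:71373427-71379173) lie on the plus strand of the same chromosome, 35.9 kb apart, with 4 predicted Gm genes annotated between them. Zbtb7b (ENSMUSG00000028042) lies at chr3:89377644-89394776 on the minus strand and Runx3 (ENSMUSG00000070691) at chr4:135120652-135177990 on the plus strand. An antisense gene overlaps Zbtb7b and another overlaps Runx3. No annotated gene overlaps the coreceptor genes. RefSeq promoter windows (GRCm38.p6) were matched for 3 of the 5 members. The 250 bases before a start are shown for one window each of Cd8a, Zbtb7b and Runx3, since Runx proteins bind a short motif and Runx3 acts on this gene set. Capitals mark TGTGGT or its reverse complement ACCACA, read on both strands. The Runx3 window starts upstream of the gene's annotated body, the Zbtb7b window lies inside the gene, and the Cd8a window ends at the first base before the gene.
Runx3, chr4:135120395-135120644, plus strand: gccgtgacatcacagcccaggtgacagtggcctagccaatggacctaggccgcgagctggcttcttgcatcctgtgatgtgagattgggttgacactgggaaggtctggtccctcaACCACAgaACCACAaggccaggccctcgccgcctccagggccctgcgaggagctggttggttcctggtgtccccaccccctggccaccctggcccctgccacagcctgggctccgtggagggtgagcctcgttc
Zbtb7b, chr3:89387672-89387921, minus strand: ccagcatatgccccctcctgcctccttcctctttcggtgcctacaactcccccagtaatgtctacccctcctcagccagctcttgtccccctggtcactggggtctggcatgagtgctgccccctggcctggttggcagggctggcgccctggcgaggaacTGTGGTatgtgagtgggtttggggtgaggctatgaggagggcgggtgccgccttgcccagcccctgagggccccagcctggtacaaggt
Cd8a, chr6:71373177-71373426, plus strand: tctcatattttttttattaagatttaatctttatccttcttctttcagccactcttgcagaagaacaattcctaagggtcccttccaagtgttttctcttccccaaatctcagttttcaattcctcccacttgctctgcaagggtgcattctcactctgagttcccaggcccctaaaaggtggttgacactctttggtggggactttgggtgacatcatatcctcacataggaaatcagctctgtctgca
The Runx3 window held the motif 2 times, with first bases 134 and 126 bases before the start, and the Zbtb7b window held it 1 time, 89 bases before the start. A second Runx3 window (chr4:135152295-135152544) and a second Zbtb7b window (chr3:89393379-89393628) were matched, and they are not shown because these letters are not in them. These letters are not in the Cd8a window. Of 32851 RefSeq promoter windows of this length, 14.0% held the motif at least once and 1.27% held it 2 or more times. A match is a string of letters and is not evidence of binding, and 3′ libraries do not show which start a transcript used.

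T cells were barcodes with at least 1000 UMIs (unique molecular identifiers, each marking 1 captured molecule), at least 500 genes, at most 10% mitochondrial UMIs and at least 2 UMIs summed over Cd3d, Cd3e and Cd3g. With mSTAR1302, 8718 of 9155 kept barcodes were T cells by this rule, and with vehicle 6729 of 7615, and 15 barcode sequences were shared between them. Trac was found in 90.1% of these cells in the mSTAR1302 library and in 91.9% in the vehicle library. Some barcodes that met the rule fell in clusters led by genes of other cell types: clusters 17, 18 and 19, described below, held 27, 6 and 17 of them with mSTAR1302 and 91, 102 and 75 with vehicle. The libraries stood apart before any member was read. Median UMIs per T cell were 6443 with mSTAR1302 and 8679 with vehicle, and UMIs in T cells summed to 67552494 and 75464605 in that order. Markers of macrophages and monocytes (9 genes, none at 0 in any gate) summed to between 38.9 and 1069 UMIs per 1000000 UMIs of the gate (CPM) over the gates of the mSTAR1302 library, and to between 558 and 3506 CPM over those of the vehicle library. Their part in the results below was not tested. Ratios that moved when the clusters led by genes of other cell types were left out are given without them too.

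Among the coreceptors, Cd4 was lower and Cd8b1 higher in the mSTAR1302 T cells than in the vehicle T cells, and Cd8a stood between them. Cd4 was found in 20.4% of T cells with mSTAR1302 (19.6 to 21.3%) and in 48.9% with vehicle (47.7 to 50.1%). Its summed level was 63.5 CPM with mSTAR1302 (61.6 to 65.4) and 112 CPM with vehicle (109 to 114). The intervals do not overlap, and the log2 ratio of mSTAR1302 over vehicle was -0.81. Cd8b1, the beta chain, was found in 77.4% of T cells with mSTAR1302 and 49.8% with vehicle, at 647 CPM (641 to 653) against 384 CPM (380 to 388), a log2 ratio of 0.75. Cd8a, the alpha chain, was found in 70.1% of T cells with mSTAR1302 and 46.3% with vehicle, at 408 CPM (403 to 413) against 339.7 CPM (336 to 344), a log2 ratio of 0.26. Thus the 2 chains of the same receptor differed by unequal amounts between the libraries. In bulk sums like these, fewer cells of a type and less RNA per cell cannot be told apart.

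In cells that held them, Cd4 was counted in fewer molecules than either Cd8 chain, by a small margin for Cd8a with mSTAR1302. Cells with Cd4 held a median of 2 UMIs of it in both libraries, and a maximum of 21 with mSTAR1302 and 25 with vehicle. A single Cd4 UMI was all that was found in 46.0% of the Cd4-positive cells with mSTAR1302 and in 38.4% with vehicle. Cells with Cd8b1 held a median of 5 UMIs with mSTAR1302 and 7 with vehicle, and those with Cd8a held 3 and 7. A gate that asks for Cd4 therefore rests on few molecules per cell, and detection varied with depth. Among mSTAR1302 T cells, Cd4 was found in 10.4% of 441 cells with 1000 to 2000 UMIs and in 32.5% of 606 cells with 16000 or more. In the mSTAR1302 library the share was higher in each deeper class. Among vehicle T cells it was found in 25.6% of 324 and in 61.5% of 1207 such cells, with no steady order between, at 52.1% of 2104 cells with 4000 to 8000 UMIs and 44.2% of 2519 with 8000 to 16000. With every cell thinned to 3000 UMIs, which left out 1111 mSTAR1302 and 580 vehicle cells, Cd4 was found in 12.9% of 7607 mSTAR1302 cells and 27.9% of 6149 vehicle cells. Thinned, Cd8a was found in 58.4% and 38.4%, and Cd8b1 in 71.4% and 41.6%, mSTAR1302 first.

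The lineage factors split in the same way at the level of all T cells. Zbtb7b was found in 8.38% of T cells with mSTAR1302 and 19.3% with vehicle, at 12.3 CPM (11.5 to 13.2) against 21.5 CPM (20.5 to 22.5), a log2 ratio of -0.75. It was the scarcest member: 87.4% of the mSTAR1302 cells that held it, and 80.3% of the vehicle cells, had a single UMI. Runx3 was found in 69.1% of T cells with mSTAR1302 and 65.3% with vehicle, at 240.3 CPM (237 to 244) against 175 CPM (172 to 178), a log2 ratio of 0.45. All 5 members passed a filter of 20 CPM in either library, Zbtb7b through the vehicle library alone. None was 2-fold apart between the libraries, where 6.67% of 5641 genes at or above the filter were.

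These ratios moved with several choices. The median log2 ratio of all tested genes was -0.21, so scaling on the median gene shifted every member up by 0.22, to -0.59 for Cd4, 0.48 for Cd8a, 0.97 for Cd8b1, -0.53 for Zbtb7b and 0.67 for Runx3. With Foxp3-positive cells left out (those with at least 1 Foxp3 UMI, a choice made after seeing the data), the log2 ratios were -0.28 for Cd4, -0.33 for Cd8a, 0.16 for Cd8b1, -0.29 for Zbtb7b and 0.23 for Runx3, so Cd8a changed sign. After thinning, Cd4 was at -1.04, Cd8b1 at 0.81 and Runx3 at 0.38. Foxp3 itself was found in 7.24% of T cells with mSTAR1302 and 46.9% with vehicle. Cd8a was also closer to 0 without the 10% of T cells with most UMIs (0.060) and without clusters 17, 18 and 19 (0.15), which are described below.

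Droplets with 100 to 300 UMIs, taken as near-empty and used to read free RNA, held all 5 members. Cd4 stood at 52.2 CPM in 53480 such droplets of the mSTAR1302 library and at 107 CPM in 65445 of the vehicle library. These levels are 0.822 and 0.957 times the level in T cells of the same library. Cd8a stood at 333 and 249 CPM, Cd8b1 at 452 and 261 CPM, and Runx3 at 123 and 88.2 CPM, mSTAR1302 first. Zbtb7b stood at 13.6 CPM with mSTAR1302 and 28.4 CPM with vehicle, 1.10 and 1.32 times its T cell level. Runx3 was the member least represented outside cells, at 0.512 and 0.503 times its T cell level. Foxp3, which is not a member but is used to split or leave out cells, was also found there. It stood at 32.0 CPM with mSTAR1302 and 146 CPM with vehicle, 1.20 and 0.867 times its T cell level. In barcodes with macrophage transcripts and no Cd3 UMI, which should lack CD8, Cd8a and Cd8b1 were each found in 5.00% of 20 barcodes with mSTAR1302 and 11.9% of 67 with vehicle. Median UMIs in these barcodes were above those of the T cells, at 10888 with mSTAR1302 and 22151 with vehicle. Both shares lie under the 70.1% and 46.3% of T cells with Cd8a. Asking for no Cd3 UMI can leave out barcodes that caught RNA of T cells. The shares therefore cannot show how often free RNA put Cd8 into a barcode.

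**Figure D1:**
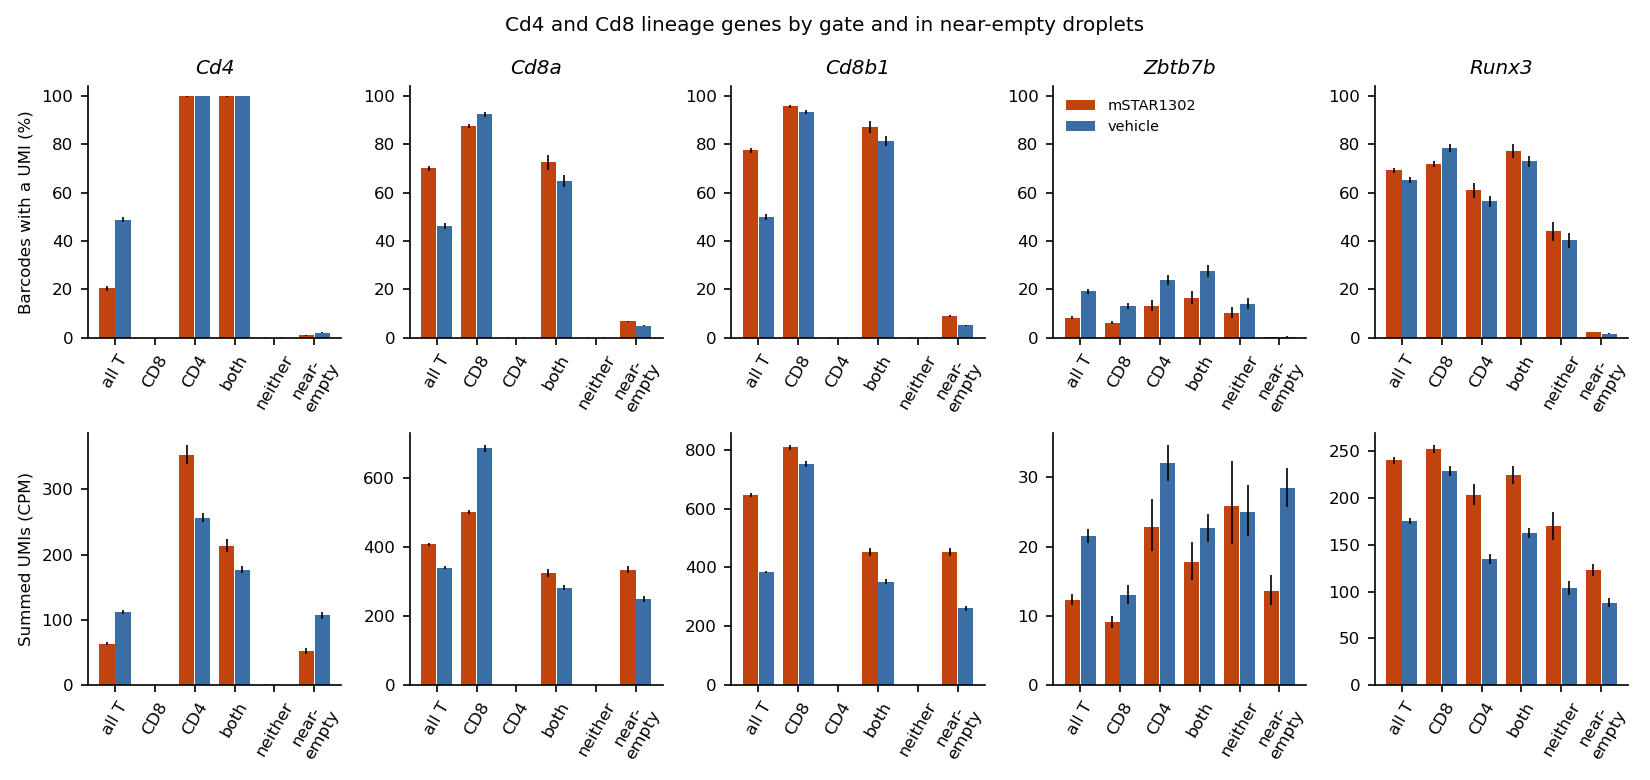
Share of barcodes with a UMI (top, %) and summed level (bottom, CPM) of the 5 members in all T cells, the 4 gates and near-empty droplets, with mSTAR1302 in orange and vehicle in blue. Bars are values of 1 library each, and lines are 95% counting intervals. Cd4 in near-empty droplets reaches 107 CPM in the vehicle library, close to the 112 CPM of its T cells, while Runx3 in near-empty droplets lies under its level in every gate of the same library.

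Each T cell was placed in 1 of 4 gates: CD8 (Cd8a or Cd8b1 found, Cd4 not), CD4 (Cd4 found, neither Cd8 gene), both, or neither. The CD8 gate took 72.2% of T cells with mSTAR1302 and 36.6% with vehicle. The CD4 gate took 10.7% and 29.5%, the cells with both 9.67% and 19.3%, and the cells with neither 7.43% and 14.6%, mSTAR1302 first. Of the cells in the CD8 or the CD4 gate, 87.0% were in the CD8 gate with mSTAR1302 (86.2 to 87.8%) and 55.3% with vehicle (53.8 to 56.8%), 31.7 points apart (30.1 to 33.4). The bead selection for both coreceptors can itself set these shares. The gap was 23.2 points after thinning and 27.0 points with at least 2 UMIs asked of a gate. With Foxp3-positive cells left out it was 11.7 points. Cells with neither coreceptor were shallow, with median UMIs of 3344.5 with mSTAR1302 and 4839 with vehicle, and their macrophage markers summed to 1069 and 3506 CPM.

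Cd4 and the Cd8 chains were found together less often than their separate shares multiply to. Cd4 and Cd8b1 were found together in 8.43% of mSTAR1302 T cells, 0.534 times the product of their shares, and in 15.7% of vehicle T cells, 0.645 times the product. After thinning, the joint shares were 3.13% and 4.85%, or 0.340 and 0.417 times the product. Cd8a and Cd8b1 were found together in 65.6% and 40.2% of T cells, 1.21 and 1.74 times the product, mSTAR1302 first. Of the mSTAR1302 cells with Cd8a, 93.7% also held Cd8b1, and of the vehicle cells with Cd8a, 86.9% did. Cd4 and Zbtb7b were found together 1.77 times as often as their product with mSTAR1302 and 1.32 times with vehicle. Zbtb7b and Runx3, whose products oppose each other in the thymus, stood at 1.04 and 1.10 times the product, and at 0.964 and 0.975 times after thinning. These are descriptions over cells of 1 library each, and depth is shared by every pair.

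**Figure D2:**
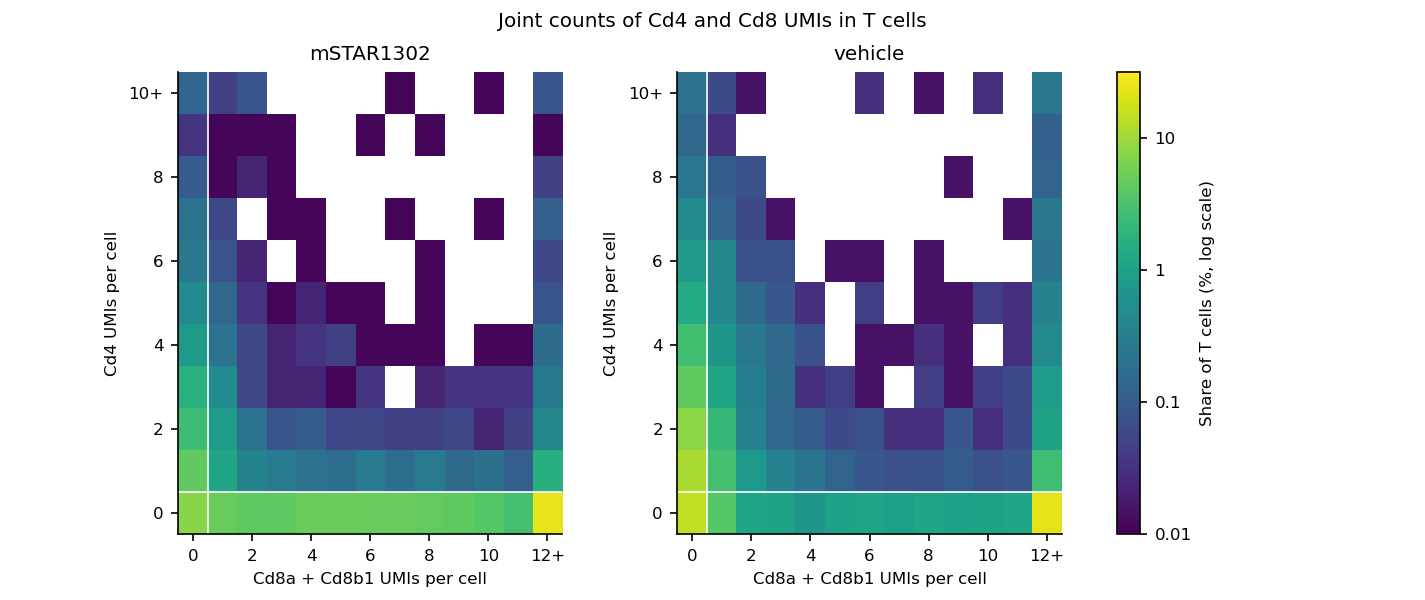
T cells by their number of Cd4 UMIs (y axis, last bin 10 or more) and of Cd8a plus Cd8b1 UMIs (x axis, last bin 12 or more), as % of T cells on a log colour scale, for mSTAR1302 (left) and vehicle (right). White squares hold no cell, and white lines separate the 4 gates. Cells with both genes lie mostly along the lower and left edges: 50.9% of them with mSTAR1302 and 38.1% with vehicle had 1 Cd4 UMI.

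Cells with both coreceptors made up 843 of the mSTAR1302 T cells and 1302 of the vehicle T cells. In 50.9% of them with mSTAR1302 and 38.1% with vehicle, Cd4 was present as 1 UMI, and in 31.6% and 40.9% the 2 Cd8 genes together were 1 UMI. At least 2 UMIs of each were found in 247 mSTAR1302 cells, 2.83% of T cells, and in 463 vehicle cells, 6.88% of T cells. At least 5 of each were found in 44 cells, 0.505% of T cells, and in 110 cells, 1.63% of T cells, mSTAR1302 first. Cells with more of both were deeper: median UMIs were 9005 over all such mSTAR1302 cells and 20115 in those with at least 5 of each, and 13028 and 22332 in the vehicle library. In the CD8 gate the medians were 6597.5 and 9865.5. Droplets that caught several cells were not called or removed, so their part in these counts was not tested.

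Foxp3 and the lineage factors were also read along the balance of the 2 coreceptors. In vehicle cells with both, Foxp3 was found in 85.4% of 130 cells where Cd8 made up at most 20% of the coreceptor UMIs, in 72.9% of 734 cells with 20 to 80%, and in 47.7% of 438 cells with at least 80%. Zbtb7b stood at 27.1, 25.6 and 17.6 CPM in the same order, and Runx3 at 124, 137 and 205 CPM. The first 2 of these Zbtb7b values rest on 66 and 254 UMIs. In mSTAR1302 cells with both, Foxp3 was found in 23.3% of 60, 24.5% of 417 and 14.5% of 366 cells of the same classes. Runx3 stood there at 232, 209 and 236 CPM and Zbtb7b at 13.1, 21.7 and 15.3 CPM, neither with a steady order, the first Zbtb7b value resting on 10 UMIs. With 60 cells in the first class, these values cannot show that an order is absent. The classes also differed in depth, at median UMIs of 15598, 9939.5 and 16069 with vehicle and 10627, 7434 and 10904 with mSTAR1302. The gap in the share of cells with both, -9.68 points (-10.8 to -8.55), was -2.33 points after thinning, -4.05 points with at least 2 UMIs asked of each gate and -4.18 points with Foxp3-positive cells left out. Markers of plasmacytoid dendritic cells, which can carry Cd4 and Cd8 transcripts in the mouse, summed to 345 CPM in mSTAR1302 cells with both and 1485 CPM in vehicle cells with both. In the CD8 gate they summed to 266 and 517 CPM, and in near-empty droplets to 263 and 755 CPM, mSTAR1302 first. The part of free RNA in cells with both was not tested.

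The ratio of Cd8a to Cd8b1 UMIs differed between the libraries within the CD8 gate. A 3′ UMI count does not grow with transcript length, but 2 transcripts may be captured unequally, so the ratio is read between classes of cells and not as a ratio of proteins. In the CD8 gate, Cd8a stood at 502 CPM with mSTAR1302 and 686 CPM with vehicle. Cd8b1 stood at 808 CPM and 752 CPM in that order. The ratio was 0.621 Cd8a UMIs per Cd8b1 UMI with mSTAR1302 (0.611 to 0.631) and 0.912 with vehicle (0.894 to 0.929), intervals far apart. Among cells with at least 10 UMIs of the pair, Cd8a made up a median of 38.5% of them in 2636 mSTAR1302 cells and 47.6% in 1663 vehicle cells. Cd8a was the larger part in 20.0% of these mSTAR1302 cells and in 41.3% of the vehicle cells.

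Cells with Cd8a alone, the pattern an alpha-alpha form would leave, were few in both libraries. Cd8a without Cd8b1 was found in 4.44% of the CD8 gate with mSTAR1302 and 6.67% with vehicle. Cd8b1 without Cd8a was found in 12.6% and 7.68%. With at least 10 UMIs of the pair, 0 of 2636 mSTAR1302 cells and 4 of 1663 vehicle cells lacked Cd8b1, so nearly all cells that were counted deeply enough had both chains. Cells without Cd8a at that depth numbered 28 and 4.

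The ratio varied between classes of CD8-gated cells. Of 11 genes whose UMIs were used to split the gate, cells with a UMI had the higher ratio in both libraries for 3 and the lower for 6, and the libraries went opposite ways for 2. These counts go by direction alone. The intervals with and without a UMI overlapped for Mki67, Klrg1 and Itgae with mSTAR1302 and for Gzmb and Klrg1 with vehicle. For Trdc, where the libraries went opposite ways, they overlapped in both. It was higher in cells that held Pdcd1, the inhibitory receptor PD-1, than in those that did not: 0.767 against 0.550 with mSTAR1302 and 0.956 against 0.759 with vehicle. It was lower in cells that held Tcf7, a factor of less differentiated T cells, than in those that did not: 0.523 against 0.655 with mSTAR1302 and 0.717 against 0.976 with vehicle. Cells that held Gzma, a granzyme, had 0.583 with mSTAR1302 and 0.783 with vehicle, and cells without it had 0.710 and 0.922. For Tox the direction was not shared, at 0.730 with and 0.603 without it in the mSTAR1302 library, and 0.890 with and 0.940 without it in the vehicle library. In all 22 classes these splits gave, the mSTAR1302 ratio was the lower. Each split divides the same CD8-gated cells again, so the classes overlap and do not count separately. Split at the lowest, middle and highest UMI counts of each library, the ratio was 0.584, 0.589 and 0.650 with mSTAR1302 and 0.947, 0.914 and 0.900 with vehicle, the mSTAR1302 value being the lower in all 3. Near-empty droplets had 0.738 with mSTAR1302 and 0.956 with vehicle, and cells with both coreceptors 0.716 and 0.804.

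T cells were also clustered without the 5 members, receptor genes, mitochondrial and ribosomal protein genes, and clusters are called by number and leading genes. A total of 8 clusters held at least 50 CD8-gated cells in each library. The ratio was lower with mSTAR1302 in 7 of them, the exception being cluster 16, led by cell cycle genes. In clusters 1, 8, 9 and 16 the intervals of the 2 libraries overlapped, so the direction there is not clear of counting error. The mSTAR1302 ratio divided by the vehicle ratio ran from 0.589 in cluster 8 to 1.05 in cluster 16, with a median of 0.827. Both ends of this range come from clusters with overlapping intervals. The cluster 8 value rests on 64 Cd8a and 47 Cd8b1 UMIs in 53 vehicle cells. In cluster 1, led by Gzma, Ccl5 and Gzmk, the ratio was 0.534 with mSTAR1302 (0.521 to 0.547) and 0.596 with vehicle (0.546 to 0.649), intervals that meet. In cluster 3, led by Slc17a6, Nrgn and Ccr7, it was 0.872 (0.833 to 0.913) and 0.963 (0.939 to 0.987). Cluster 1 held 3086 CD8-gated mSTAR1302 cells and 148 vehicle cells, and cluster 3 held 611 and 1243, so the clusters that fill the CD8 gate are not the same in the libraries. Cluster 5, led by the cytokine genes Il3, Ccl3 and Ccl4, had 0.993 with mSTAR1302 and 1.49 with vehicle, and cluster 4, led by Lgals7 and Cd40lg, had 0.426 and 0.606.

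**Figure D3:**
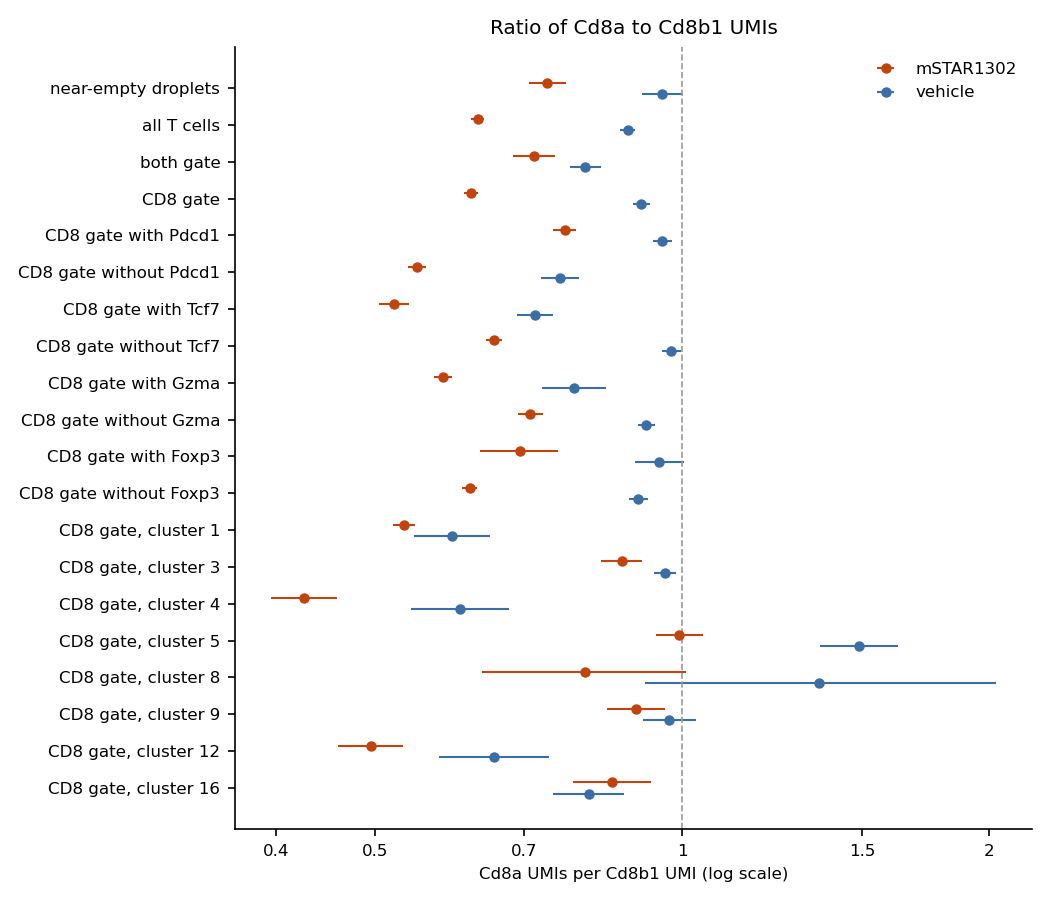
Cd8a UMIs per Cd8b1 UMI (log scale) in near-empty droplets, T cells, gates, CD8-gated cells split by a marker UMI, and CD8-gated cells of the 8 clusters with at least 50 such cells in each library, with mSTAR1302 in orange above vehicle in blue. Points are values of 1 library and lines 95% counting intervals. The mSTAR1302 point lies left of the vehicle point in every row but cluster 16, and the lines overlap in clusters 1, 8, 9 and 16.

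Zbtb7b, which the gates did not use, was higher in the CD4 gate than in the CD8 gate of each library. It was found in 13.2% of 937 CD4-gated and 6.36% of 6290 CD8-gated mSTAR1302 cells, at 22.9 CPM (19.3 to 26.9) and 9.08 CPM (8.25 to 9.96). It was found in 23.9% of 1987 CD4-gated and 13.2% of 2460 CD8-gated vehicle cells, at 32.0 CPM (29.5 to 34.7) and 13.0 CPM (11.7 to 14.4). The CD4 gate was 2.52-fold higher in the mSTAR1302 library (2.08 to 3.04) and 2.46-fold higher in the vehicle library (2.16 to 2.81), sizes whose intervals overlap. Zbtb7b passed the 20 CPM filter through the CD4 gate alone. At least 2-fold higher in the CD4 gate were 2.47% of 5139 genes with mSTAR1302 and 4.94% of 5867 with vehicle. In the near-empty droplets Zbtb7b stood above its level in the CD8 gate of the same library, at 13.6 CPM with mSTAR1302 and 28.4 CPM with vehicle. A level above that of the CD8 gate was not limited to the CD4 gate. Cells with neither coreceptor had Zbtb7b at 25.8 CPM with mSTAR1302 (20.3 to 32.4) and 24.95 CPM with vehicle (21.45 to 28.9). With mSTAR1302 this interval overlaps that of the CD4 gate, and with vehicle it lies under it. Macrophage barcodes with no Cd3 UMI had Zbtb7b at 13.4 CPM with mSTAR1302, from 4 UMIs, and 27.1 CPM with vehicle (19.4 to 36.9).

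Runx3 separated the gates less than Zbtb7b did, and by different amounts in the 2 libraries. It was found in 71.8% of CD8-gated and 60.9% of CD4-gated mSTAR1302 cells, at 252 CPM (248 to 257) and 204 CPM (193 to 215). It was found in 78.4% of CD8-gated and 56.4% of CD4-gated vehicle cells, at 229 CPM (223 to 234) and 135 CPM (129 to 140.0). The CD8 gate was 1.24-fold higher with mSTAR1302 (1.17 to 1.31) and 1.70-fold higher with vehicle (1.62 to 1.78). At least 2-fold higher in the CD8 gate were 1.81% of genes with mSTAR1302 and 3.84% with vehicle, and Runx3 was not among them. Thinned to 3000 UMIs, Runx3 was found in 50.6% of CD8-gated and 41.3% of CD4-gated cells with mSTAR1302, and in 47.7% and 31.6% with vehicle. Runx3 alone of the 2 factors was found in 52.0% of CD4-gated mSTAR1302 cells and 41.1% of CD4-gated vehicle cells, and Zbtb7b alone in 4.27% and 8.51%.

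Within the CD4 gate, Runx3 was lower in cells with a Foxp3 UMI than in cells without one. In CD4-gated cells with a Foxp3 UMI it stood at 122 CPM in 146 mSTAR1302 cells (103 to 143) and 123 CPM in 1365 vehicle cells (117 to 129). In CD4-gated cells without a Foxp3 UMI, it stood at 223 CPM in 791 mSTAR1302 cells (211 to 237) and 174 CPM in 622 vehicle cells (162 to 187). The 2 levels with Foxp3 do not differ beyond their intervals, and they lie near the 123 CPM of near-empty droplets in the mSTAR1302 library and above the 88.2 CPM in the vehicle library. With Foxp3-positive cells left out, the log2 ratio of the CD8 gate over the CD4 gate for Runx3 was 0.19 with mSTAR1302 and 0.46 with vehicle, against 0.31 and 0.76 over all cells of the gates. Zbtb7b stood at 30.5 CPM in mSTAR1302 and 34.0 CPM in vehicle CD4-gated cells with Foxp3, and at 21.1 and 25.5 CPM in those without it, mSTAR1302 first and with intervals that overlap between the libraries. In the vehicle CD8 gate, the 402 cells with a Foxp3 UMI had Zbtb7b at 20.7 CPM and Runx3 at 187 CPM, and the 2058 cells without one had 11.2 and 239 CPM. Of those 402 cells, 51.0% held a single Foxp3 UMI. How many cells in any gate held Foxp3 from free RNA was not tested.

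**Figure D4:**
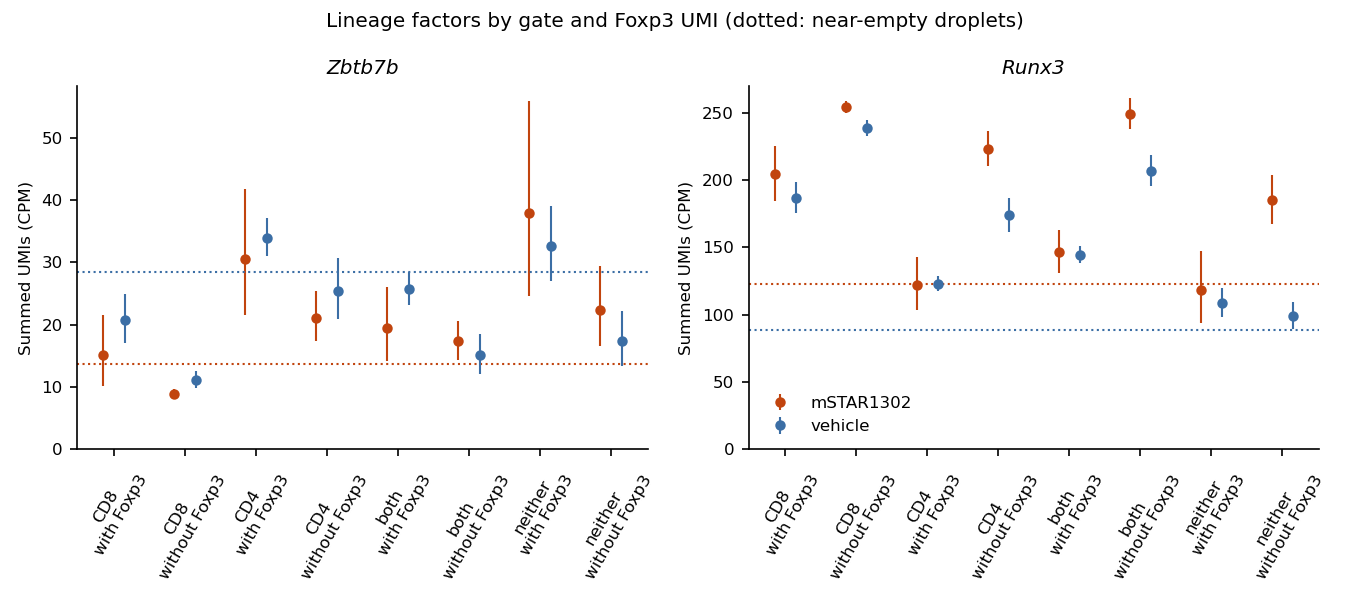
Summed level (CPM) of Zbtb7b (left) and Runx3 (right) in the 4 gates, split by whether a cell held a Foxp3 UMI, with mSTAR1302 in orange and vehicle in blue. Points are values of 1 library, lines are 95% counting intervals, and dotted lines give the near-empty droplets. CD4-gated cells with Foxp3 sit at 122 CPM of Runx3 with mSTAR1302 and 123 CPM with vehicle, while those without it sit at 223 and 174 CPM.

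Within the CD8 gate, Cd8a was lower with mSTAR1302 than with vehicle. Its log2 ratio of mSTAR1302 over vehicle was -0.45, that of Cd8b1 0.10 and that of Runx3 0.14, and Zbtb7b, under 20 CPM in both libraries, had -0.47. None of the 3 members at or above the filter was 2-fold apart, and 5.41% of 5473 genes were. Levels of Cd8a and Cd8b1 in this gate depend on the gate itself, so these ratios are descriptions. Relative to the median gene, which lay at -0.14, the ratios were -0.31 for Cd8a, 0.25 for Cd8b1 and 0.29 for Runx3. For Cd8b1 the direction was not stable: the log2 ratio was -0.0013 with Foxp3-positive cells left out and between 0.0015 and 0.25 in the other settings. Without clusters 17, 18 and 19, Cd8a was at -0.55, Cd8b1 at 0.0042 and Runx3 at 0.063. Zbtb7b was -0.31 with Foxp3-positive cells left out.

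Within the CD4 gate, Cd4 stood at 353 CPM with mSTAR1302 and 257 CPM with vehicle, a log2 ratio of 0.46, again in a gate that asked for Cd4. That ratio was 0.13 after thinning and 0.17 with Foxp3-positive cells left out. Zbtb7b had a log2 ratio of -0.47 and Runx3 of 0.59. Relative to the median gene of this gate, at -0.28 on the same scale, Cd4 was at 0.74, Zbtb7b at -0.19 and Runx3 at 0.87, and Runx3 was at 0.36 with Foxp3-positive cells left out. None of these 3 members was 2-fold apart, where 8.24% of 5667 genes were.

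The clusters spread the 5 members widely. Over the 32 combinations of cluster and library with at least 50 cells, Cd4 ran from 8.77 to 244 CPM, Cd8a from 23.3 to 922 CPM, Cd8b1 from 24.6 to 987 CPM, Zbtb7b from 6.07 to 45.4 CPM and Runx3 from 43.0 to 368 CPM. The lowest Cd8a, Cd8b1 and Runx3 values were those of vehicle cluster 19, led by genes of another cell type and described below. Cluster 8, led by Ttn, had the highest Runx3 with mSTAR1302 and the highest Zbtb7b with vehicle. Its cells were shallow, with median UMIs of 1683 and 1891, mSTAR1302 first. Cluster 1, led by Gzma, had Cd4 at 8.77 CPM with mSTAR1302 and 21.6 CPM with vehicle, and Cd8b1 at 857 and 987 CPM. Cluster 2, led by Rln3, Klrg1 and Penk with Foxp3 among its first 10 genes, had Cd4 at 154 and 201 CPM and Zbtb7b at 31.0 and 34.0 CPM, mSTAR1302 first. The vehicle library was again the higher for Cd4. The Zbtb7b intervals overlapped, at 22.7 to 41.3 CPM with mSTAR1302 and 31.3 to 36.8 CPM with vehicle. Cluster 2 held 204 mSTAR1302 and 1978 vehicle cells. Cluster 4 mixed the lineages: the CD8 gate took 30.7% and the CD4 gate 38.3% of its 1375 mSTAR1302 cells, and 40.9% and 39.4% of its 259 vehicle cells. Cluster 7, led by Ramp3, Tbc1d4 and S1pr1, had high Cd4 at 214 and 209.6 CPM with low Zbtb7b at 12.7 and 14.4 CPM, mSTAR1302 first.

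Several clusters held other cell types or unusual barcodes, and the coreceptors were read there apart. Cluster 18, led by Klk1, Siglech and Ccr9, markers of plasmacytoid dendritic cells, had 6 mSTAR1302 and 102 vehicle cells, and 100% and 86.3% of them had both Cd4 and Cd8. Barcodes with these markers and no Cd3 UMI, which lie outside the T cells and so outside cluster 18, were read separately. Their Cd8a to Cd8b1 ratio was 0.235 with mSTAR1302 (11 barcodes, 0.0576 to 0.721) and 0.333 with vehicle (119 barcodes, 0.295 to 0.377). Cluster 17, led by Lyz2, Apoe and C1qa, and cluster 19, led by Cald1, Col1a2 and Sparc, had Cd4 at 27.3 and 11.6 CPM in the vehicle library, clusters that held fewer than 50 mSTAR1302 cells each. Cluster 15, led by Xcl1 and Ccl1, had both coreceptors in 45.9% of 37 mSTAR1302 cells and 70.1% of 197 vehicle cells, with Foxp3 in 83.8% and 85.3% and median UMIs of 11741 and 17270. Without clusters 17, 18 and 19, the log2 ratio of the CD8 over the CD4 gate for Runx3 in the vehicle library was 0.85.

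**Figure D5:**
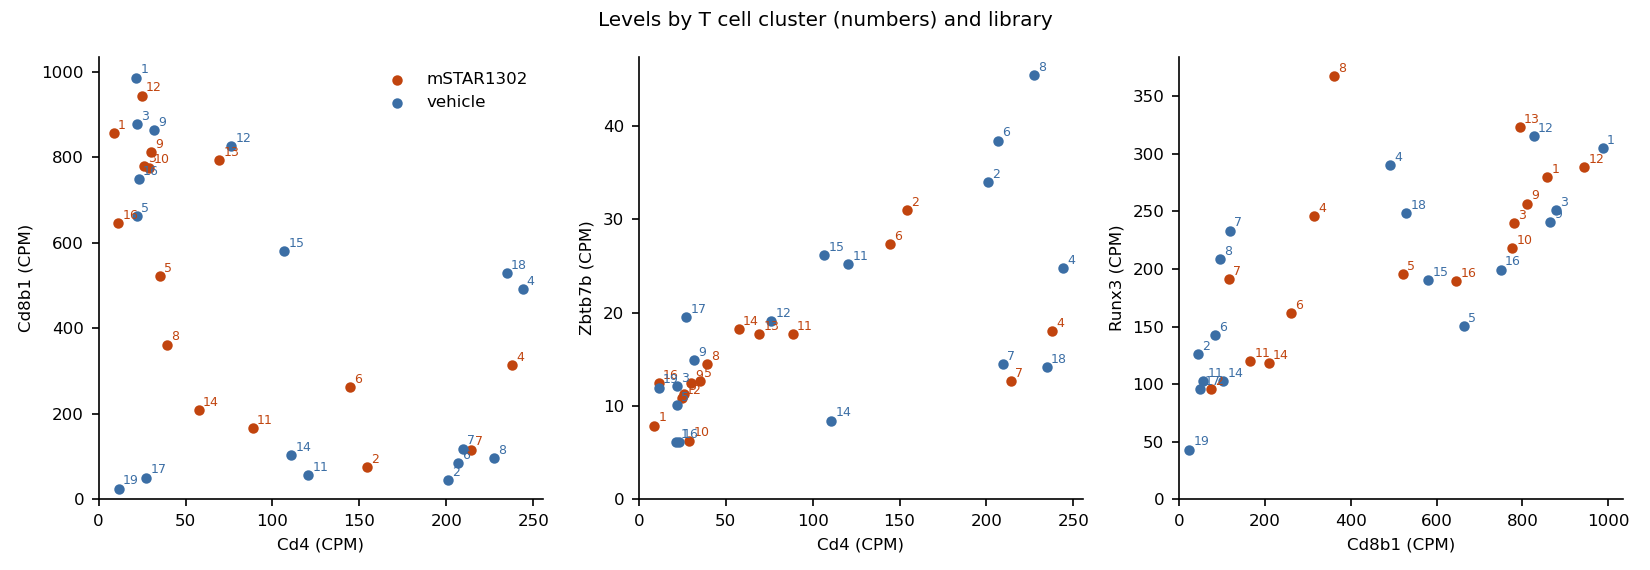
Summed levels (CPM) in each T cell cluster of at least 50 cells, numbered, with mSTAR1302 in orange and vehicle in blue: Cd4 against Cd8b1 (left), Cd4 against Zbtb7b (middle) and Cd8b1 against Runx3 (right). Clusters 2, 6 and 8 of the vehicle library have the highest Zbtb7b, while cluster 7 has Cd4 at 214 CPM with mSTAR1302 and 209.6 CPM with vehicle and Zbtb7b at 12.7 and 14.4 CPM.

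The genes most like each member were found by Pearson's r of log2(CPM + 1) over the same 32 combinations, among 9013 genes. The combinations share 2 libraries, so r is a description. They include vehicle clusters 17, 18 and 19, led by genes of other cell types, and the shallow cluster 8 of both libraries. A high r is therefore not a likeness among T cell states alone. Cd8a was most like Klrd1 (0.975), Klrk1 (0.964), Cd8b1 (0.953), Klrc1 (0.951) and Klrc2 (0.947). Cd8b1 was most like Cd8a, Klrk1, Jaml, Klrd1 and Nkg7. The Klr genes encode lectin-like receptors shared with natural killer cells. Cd4 was most like Trat1 (0.817), Cd5 (0.804), Zfp36l1, Sgms1 and Rcsd1, and stood at 0.678 with Zbtb7b and -0.490 with Cd8a. Zbtb7b was most like Tent5a (0.840), Swap70, Tank, Fuz and Arhgef12. Runx3 was most like Abcb1b (0.915), Rnf166, Ctsw, Klrk1 and Otulin, at 0.796 with Cd8b1 and -0.03 with Cd4.

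Other genes of the lineage network, which either act on the members or are needed for the CD4 or CD8 choice, leaned toward the CD4 gate. With mSTAR1302, 0 of 20 at or above the filter were at least 2-fold higher in the CD8 gate and 3 were at least 2-fold lower, where 1.81% and 2.47% of all genes were, with a median log2 ratio of -0.42 against -0.02 over all genes tested. With vehicle, 0 of 20 were higher and 4 lower, where 3.84% and 4.94% of all genes were, with a median of -0.40 against -0.13. The CD4 gates were not alike: Foxp3 was found in 15.6% of CD4-gated cells with mSTAR1302 and in 68.7% with vehicle. The part of these cells in this list and the lists below was not tested. Gata3, which acts upstream of Zbtb7b in the thymus, stood at 78.5 CPM in the CD8 gate and 235 CPM in the CD4 gate with mSTAR1302, and at 80.4 and 202 CPM with vehicle. Tox, needed for CD4 lineage development, stood at 21.4 and 81.9 CPM in the same gates with mSTAR1302, and at 84.1 and 129 CPM, a smaller gap, with vehicle. Runx1, the Runx protein that silences Cd4 in immature cells, stood at 34.0 CPM in the CD8 gate and 74.8 CPM in the CD4 gate with mSTAR1302, and at 38.5 and 98.0 CPM with vehicle, the reverse of Runx3. Cbfb, the partner of all Runx proteins, stood at 50.4 CPM in the CD8 gate and 39.7 CPM in the CD4 gate with mSTAR1302, and at 50.5 and 61.2 CPM with vehicle, opposite directions. In the vehicle library Myb stood at 11.7 CPM in the CD8 gate and 69.9 CPM in the CD4 gate, and in the mSTAR1302 library at 13.1 and 22.4 CPM. Lef1 stood at 15.9 and 58.6 CPM in these gates with vehicle, a gap that the mSTAR1302 library did not show, at 62.7 and 60.1 CPM.

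Of the genes that carry or restrain the coreceptor signal, few were 2-fold apart between the gates. Of 18 in each library, 0 were at least 2-fold higher in the CD8 gate. Lower were 2 with mSTAR1302, Cd5 and Cd6, and 1 with vehicle, Cd5, where 2.47% and 4.94% of all genes were lower. Counts this small say little about the list, and the vehicle count lies near the share over all genes. The medians were -0.15 and -0.22, against -0.02 and -0.13 over all genes tested. Ubash3a, a negative regulator of receptor signalling, stood at 43.6 CPM in the CD8 gate and 77.4 CPM in the CD4 gate with mSTAR1302, and at 37.1 and 54.0 CPM with vehicle. The phosphatase gene Ptpn22 went the other way, at 323 and 221 CPM with mSTAR1302 and 244 and 162 CPM with vehicle. Cd5, an inhibitory receptor that tracks receptor signal strength, stood at 67.6 CPM in the CD8 gate and 275 CPM in the CD4 gate with mSTAR1302, and at 107 and 359 CPM with vehicle. Cd6, its relative, stood at 104 and 309 CPM with mSTAR1302, and at 180.0 and 320 CPM with vehicle. Of the cytotoxic programme, 15 of 19 genes with mSTAR1302 and 15 of 18 with vehicle were at least 2-fold higher in the CD8 gate, where 1.81% and 3.84% of all genes were, with medians of 2.17 and 2.99. Among them Prf1, the pore-forming protein, stood at 160.0 CPM in the CD8 gate and 7.73 CPM in the CD4 gate with mSTAR1302, and Klrd1 at 885 and 33.1 CPM with vehicle. Gzmb went against its list in the vehicle library, at 361 CPM in the CD8 gate and 1095 CPM in the CD4 gate. Most cells of that CD4 gate, 68.7%, held a Foxp3 UMI. Itgae, a target of Runx3 in CD8 cells, stood at 10.0 and 68.6 CPM with mSTAR1302 and 40.9 and 277 CPM with vehicle, lower in the CD8 gate of each library.

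Of the helper programme, 11 of 15 genes with mSTAR1302 and 10 of 15 with vehicle were at least 2-fold lower in the CD8 gate, where 2.47% and 4.94% of all genes were, and 0 and 1 were higher, with medians of -1.76 and -1.65. Maf stood at 93.8 CPM in the CD8 gate and 828 CPM in the CD4 gate of the vehicle library, and Izumo1r at 9.30 and 85.6 CPM with mSTAR1302. The gene higher in the CD8 gate of the vehicle library was Il2, at 26.1 against 2.40 CPM. Between the libraries within the CD4 gate, Cd40lg, the helper signal to B cells, stood at 186 CPM with mSTAR1302 and 29.5 CPM with vehicle, and Foxp3 at 67.4 and 312 CPM. The lineage network had medians of -0.07 in the CD8 gate and -0.03 in the CD4 gate between the libraries, against -0.14 and -0.27 over all genes tested, with Tox (21.4 CPM with mSTAR1302 and 84.1 CPM with vehicle) and Lef1 (62.7 and 15.9 CPM) the genes of that list past 2-fold in the CD8 gate and Myb (22.4 and 69.9 CPM) in the CD4 gate.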

How the data were processed

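Per the labels, tumour-infiltrating CD4+ and CD8+ cells were made into 10x 3′ libraries and sequenced to at least 50000 reads per cell. The authors deposited UMI counts per gene and barcode, unfiltered. Per the submitters' processing notes, Cell Ranger 6.0.1, mm10, MultiQC 1.9, FastQC and Seurat were used, while the file headers name Cell Ranger 4. The sources used here do not state strand use in counting. Of 32285 gene IDs, 32158 matched GENCODE M21.

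Counts were summed per library and gate and scaled to CPM. Ratios used log2(CPM + 1) for genes with at least 20 CPM in either sum, and 2-fold counted as apart. With 1 library per group no test was made. Shares carry exact Clopper-Pearson intervals, levels carry exact Poisson limits, ratios of counts exact binomial limits and differences of shares Newcombe intervals. Doublets were neither called nor removed, nor was free RNA subtracted. The 100 to 300 UMI band was set after barcode totals were seen. Thinning drew 3000 UMIs per cell. Clusters came from 2000 variable genes, 30 components and Leiden at resolution 1 (scanpy 1.11.5, leidenalg 0.10.2), without batch integration. Python 3.11.15, numpy 2.4.6 and scipy 1.17.1 were used. The fold step was tested on simulated data.

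Members, lists and comparisons were chosen with earlier results of these data known. Besides the members, the rule named the 5 genes most like each member and the 3 highest and 3 lowest of each list, of which the text gives those closest to the members' roles. The genes that split the CD8 gate, and of the list genes those outside that rule, were chosen by hand.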

Additional observations from a re-analysis of the deposited data

How the results depend on the processing

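With 1 library per group, no paired analysis was possible because no replicate exists, and no replicate could be left out. Settings with Foxp3-positive cells left out, without clusters 17, 18 and 19 or without cluster 8, led by Ttn and Lars2, were chosen after the data were seen. Of 150 values of the main results under these and the other settings, 105 stayed within their counting interval, 44 moved beyond it and 1 changed sign. The cause of these moves was not tested. With thinning to 3000 UMIs, the CD8 share differed by 23.2 points and the share with both by -2.33 points, the Cd8a to Cd8b1 log2 ratio with mSTAR1302 was -0.74, and the log2 ratios of mSTAR1302 over vehicle in T cells were -1.04 for Cd4, 0.81 for Cd8b1 and 0.38 for Runx3. With at least 2 UMIs for a gate, the shares differed by 27.0 and -4.05 points and the Runx3 ratio of the vehicle gates was 0.84. With Foxp3-positive cells left out, the shares differed by 11.7 and -4.18 points, the Runx3 ratio of the CD8 over the CD4 gate was 0.19 with mSTAR1302 and 0.46 with vehicle, and the T cell ratios were -0.28 for Cd4, -0.33 for Cd8a, which reversed, 0.16 for Cd8b1, -0.29 for Zbtb7b and 0.23 for Runx3. In the CD8 gate the Cd8b1 ratio reversed there too, to -0.0013. Without the 10% of T cells with most UMIs, the share with both differed by -8.25 points, the Cd8a to Cd8b1 log2 ratio with mSTAR1302 was -0.73, the Runx3 ratio of the vehicle gates was 0.85, and the T cell ratios were -0.91 for Cd4, 0.060 for Cd8a, 0.62 for Cd8b1 and 0.39 for Runx3. With the mean of per-cell CPM, the Cd8a to Cd8b1 log2 ratio was -0.72 with mSTAR1302 and -0.10 with vehicle, and the T cell ratios were -1.06 for Cd4, 0.29 for Cd8a and 0.86 for Cd8b1. With median ratio scaling the T cell ratios were -0.59 for Cd4, 0.48 for Cd8a, 0.97 for Cd8b1, -0.53 for Zbtb7b and 0.67 for Runx3. At 5% mitochondrial UMIs the Cd8a to Cd8b1 log2 ratio with mSTAR1302 was -0.71, and the T cell ratios were -0.87 for Cd4 and 0.78 for Cd8b1. Asking for 1 Cd3 UMI gave Cd8a 0.30, and 4 gave Cd8a 0.22 and Cd8b1 0.72. Without clusters 17, 18 and 19 the Runx3 ratio of the vehicle gates was 0.85, and the T cell ratios were 0.15 for Cd8a, 0.67 for Cd8b1 and 0.41 for Runx3. The Zbtb7b ratio of the gates stayed within its interval under all settings run.

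Counts of genes at least 2-fold apart depended on the filter. Without a filter on CPM, 109 genes were higher and 1221 lower in mSTAR1302 T cells, against 58 and 318 at 20 CPM, 106 and 1022 in the CD8 gate, against 51 and 245, and 200 and 1282 in the CD4 gate, against 100 and 367. At 5 CPM the same counts were 95 and 759, 85 and 621, and 154 and 841. Between the gates, 401 genes were higher and 352 lower in the CD8 gate with mSTAR1302 without a filter and 229 and 238 at 5 CPM, against 93 and 127, and 758 and 623 without a filter and 480 and 485 at 5 CPM with vehicle, against 225 and 290. With median ratio scaling, 90 genes were higher in mSTAR1302 T cells and 189 lower in the CD4 gate. With Foxp3-positive cells left out, 47 were higher in the CD4 gate. Depth limits Zbtb7b most, which rested on a single UMI in most cells that held it.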
